A study of Homo sapiens with 7 samples.

Results

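The regions described here are 691 VRK1 peaks of control HT1080 cells that lay over a peak of histone H2A ubiquitylated on lysine K119 (ubK119) and over no peak of H2A phosphorylated on threonine T120 (pT120). They were chosen from the 17531 peaks called in the VRK1 library of the cells given the control siRNA, siControl. Of these, 13378 overlapped no peak of the siControl input and 11489 no peak of either input, where input is sonicated DNA sequenced without an antibody. A ubK119 peak of the siControl cells overlapped 784 of the 11489 by at least 1 bp, and 93 of those 784 also overlapped a siControl pT120 peak, which left the 691. The other VRK1 peaks outside input peaks were 179 with a pT120 peak only and 10526 with neither mark. Peak status in the siControl VRK1, ubK119 and pT120 libraries and in both inputs therefore chose the regions, and values from those libraries are given below as description.

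HT1080 is a human fibrosarcoma cell line. The cells had been transfected with Stealth siRNA, either non-targeting (siControl) or directed at human VRK1 (siVRK1), with the lipid reagent Lipofectamine RNAiMAX, and nuclei were fixed, sonicated and immunoprecipitated. There were 7 libraries: VRK1, ubK119, pT120 and input from siControl cells, and ubK119, pT120 and input from siVRK1 cells. Each was made 1 time, so no difference below has a replicate check or a p-value, and each compares libraries, not conditions. VRK1 was not immunoprecipitated from siVRK1 cells in the samples used here, so neither its loss nor the fate of its peaks is measured.

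VRK1 is a chromatin-associated serine/threonine kinase of the vaccinia-related kinase family, and T120 of H2A is among its known substrates. K119 is the neighbouring residue, to which the RING1 and RNF2 ubiquitin ligases of Polycomb repressive complex 1 attach a single ubiquitin, a mark associated with silenced genes. Phosphorylation and ubiquitylation at the adjacent residues have been studied as opposing marks of the H2A C-terminal tail. The regions chosen are places where a VRK1 peak and a ubK119 peak, from separate immunoprecipitations, overlapped and no pT120 peak was called. Whether the kinase and the mark stood there together was not measured. The lists carry positions in hg19 and no gene names, and the regions are named by position.

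The libraries held from 20687408 reads (siControl pT120) to 40442635 reads (siControl ubK119). The lowest height at which a peak was called, in reads stacked in a window, was 12 to 18 reads, or 0.333 to 0.600 RPM (reads per 1000000 reads of the library), and it was 14 reads for VRK1 and 15 for siControl ubK119. This floor differed between the siRNAs in opposite ways for the 2 marks. For ubK119 it was 0.371 RPM in siControl and 0.600 in siVRK1, and for pT120 0.580 in siControl and 0.333 in siVRK1. What part the floors had in the overlap of the lists was not tested. The pT120 lists of the 2 siRNAs had little in common: of the 3050 siControl pT120 peaks outside input peaks, 5.18% (95% exact interval 4.42 to 6.03) overlapped a siVRK1 pT120 peak and 6.07% (5.24 to 6.97) a siVRK1 ubK119 peak, although those lists held 37994 and 9814 peaks outside input peaks. Of the 23695 siControl ubK119 peaks, 5.38% overlapped a siVRK1 ubK119 peak and 6.18% a siVRK1 pT120 peak. Each pT120 or ubK119 value therefore comes from a library whose peaks were mostly not found by the same antibody under the other siRNA, and no second library was at hand to check either. Whether each pT120 library holds what its label says could not be checked from other values here, and every pT120 value below rests on the labels. All intervals are exact 95% intervals and take in counting error alone. They treat reads and regions as independent. Amplified reads that carry no molecular identifier can be copies of 1 molecule, so the intervals can be too narrow.

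The 691 regions were short and low. Their lengths ran from 200 to 922 bp with a median of 241 bp, and together they covered 185.631 kb. Their VRK1 heights ran from 14 to 29 reads with a median of 15, and 270 regions (39.1%) stood at the lowest height of the list. Among the VRK1 peaks with neither mark, 52.6% did so and the median length was 213 bp. In 174 of the 691 the count of VRK1 reads inside the bounds was below the height, and in 3 it was below 0.5 of it. Per the file headers the height counts extended reads, and whether that accounts for the gap was not tested.

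The overlap of VRK1 and ubK119 was mostly more than a touch of edges. A single ubK119 peak overlapped 681 regions and 10 regions met several, for 684 distinct ubK119 peaks. The overlap ran from 1 to 737 bp with a median of 173 bp, and the median share of a VRK1 peak under a ubK119 peak was 63.9% (quartiles 39.8% and 93.3%). In 139 regions the ubK119 peak covered the VRK1 peak whole, in 457 it covered at least 50% of it, and in 24 the overlap was under 20 bp. The centres of the paired peaks lay a median of 124 bp apart, and the upper quartile was 207 bp. The ubK119 peaks were low too, with a median height of 17 reads and a highest of 41, and 168 regions (24.3%) met one at the lowest height of its list.

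The reads inside the regions show how the siControl libraries compared. VRK1 gave 0 to 65 reads per region with a median of 16 (0.499 RPM), and ubK119 gave 1 to 55 with a median of 16 (0.396 RPM). The pT120 library gave 0 to 24 reads with a median of 5 (0.242 RPM), and the input gave 0 to 32 with a median of 6 (0.223 RPM). VRK1 and ubK119 thus stood above input, as the choice of regions favours, and median pT120 stood near it. The rule asks only that no pT120 peak was called, and the lowest called height in that library was 0.580 RPM. No pT120 read fell in 6 regions, and a count of 0 allows up to 3 reads, or 0.145 RPM, in that library. Summed over the 691 regions, VRK1 stood 2.19-fold above input (2.12 to 2.26), ubK119 1.66-fold (1.60 to 1.71) and pT120 1.16-fold (1.11 to 1.21). At the VRK1 peaks with neither mark those ratios were 2.50 (2.47 to 2.52), 0.815 (0.806 to 0.825) and 1.15 (1.13 to 1.16). VRK1 over input was 2.31 (2.16 to 2.48) with pT120 only and 2.96 (2.72 to 3.22) with both marks, so it was lowest in the ubK119-only set, whose interval overlapped that of the pT120-only set. The pT120 intervals of the ubK119-only and neither-mark sets overlapped.

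Input density differed as well. The siControl input gave 0.929 RPM per kb in the 691 regions and 0.801 in those with neither mark, a denominator that was higher in the ubK119 set. How far the input level set the recovery of either antibody there was not tested.

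**Figure D1:**
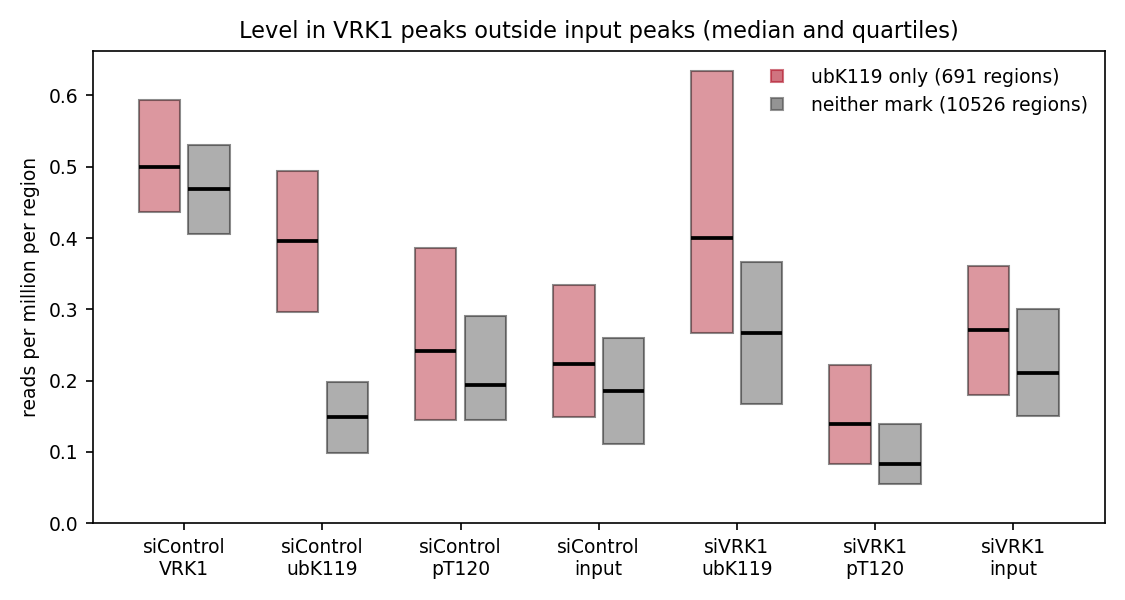
RPM per region (y axis) in each of the 7 libraries (x axis), for the 691 VRK1 peaks with ubK119 only (red) and the 10526 with neither mark (grey); bars span the quartiles and black lines are medians. The red set stands apart in siControl ubK119, which chose it, and its median is also higher in siVRK1 ubK119 (0.400 against 0.267 RPM) and siVRK1 pT120 (0.139 against 0.0833 RPM), with overlapping quartiles.

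In siVRK1 cells, ubK119 was again above input at these places and pT120 was below it when scaled to library totals. The siVRK1 marks were not used to choose the regions, but the absence of a siVRK1 input peak was. The siVRK1 ubK119 library gave 0 to 142 reads per region with a median of 12 (0.400 RPM), the siVRK1 pT120 library 0 to 39 with a median of 5 (0.139 RPM) and the siVRK1 input 0 to 41 with a median of 9 (0.271 RPM). The ubK119 reads were above input in 517 of 691 regions (74.8%) and the pT120 reads below it in 538 (77.9%). At the VRK1 peaks with neither mark the same directions held for 59.9% and 87.7%. The ubK119 mark was therefore more often above input, and pT120 less often below it, in the ubK119 set. Summed pT120 over input was 0.657 over all VRK1 peaks and 0.640 at the 691, so the low side was not particular to them. Scaled to reads in siControl input regions, the 691 had 0.909 (0.875 to 0.944). With input regions of at most 100 reads it was 0.995 (0.958 to 1.03).

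Summed over the regions, siVRK1 ubK119 stood 1.74-fold above its own input (1.69 to 1.799), against 1.24-fold (1.23 to 1.25) at VRK1 peaks with neither mark. The 179 regions with pT120 only had 1.56 (1.46 to 1.66) and the 93 with both marks 2.88 (2.67 to 3.11). The order of the siVRK1 ubK119 ratio was thus both marks, ubK119 only, pT120 only, neither mark, with no neighbouring intervals overlapping. The step between ubK119 only and pT120 only was less clear outside the runs of regions described below. There the 218 ubK119-only regions had 1.64 (1.54 to 1.74), which overlapped the interval of all 179 with pT120 only. For siVRK1 pT120 over input the ubK119 set had 0.640 (0.616 to 0.664), the regions with both marks 1.26 (1.15 to 1.37), those with pT120 only 0.546 (0.505 to 0.592) and those with neither 0.444 (0.439 to 0.450). The siVRK1 pT120 signal was therefore higher over the regions chosen for ubK119 than over those chosen for a siControl pT120 peak alone.

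Region by region the counts are small, and a region was called when its ratio was at least 2 or at most 0.5 among regions with at least 10 reads in the 2 libraries together. For siVRK1 ubK119 over input, 224 of 653 regions (34.3%) were at least 2, against a background of 14.9% over all VRK1 peaks, and 31 were at most 0.5, against 7.77%. For siVRK1 pT120 over input, 35 of 564 (6.21%) were at least 2, against a background of 1.91%, and 245 (43.4%) were at most 0.5, against 53.6%. In siControl, 237 of 675 had ubK119 at least 2 times input beside a background of 8.44%, a count that the choice of regions sets. There pT120 was at least 2 times input in 76 of 457 (16.6%). This share was above the 13.2% over all VRK1 peaks and below the 19.19% over VRK1 peaks outside input peaks. The rule that no siControl pT120 peak was called favours a low share. The siControl pT120 ratio was at most 0.5 in 43 (9.41%, background 10.2%). Among VRK1 peaks outside input peaks alone, the siVRK1 shares were 21.6% for high ubK119, 2.53% for high pT120 and 56.2% for low pT120. The 691 thus had more high calls of both siVRK1 marks and fewer low pT120 calls by either background.

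**Figure D2:**
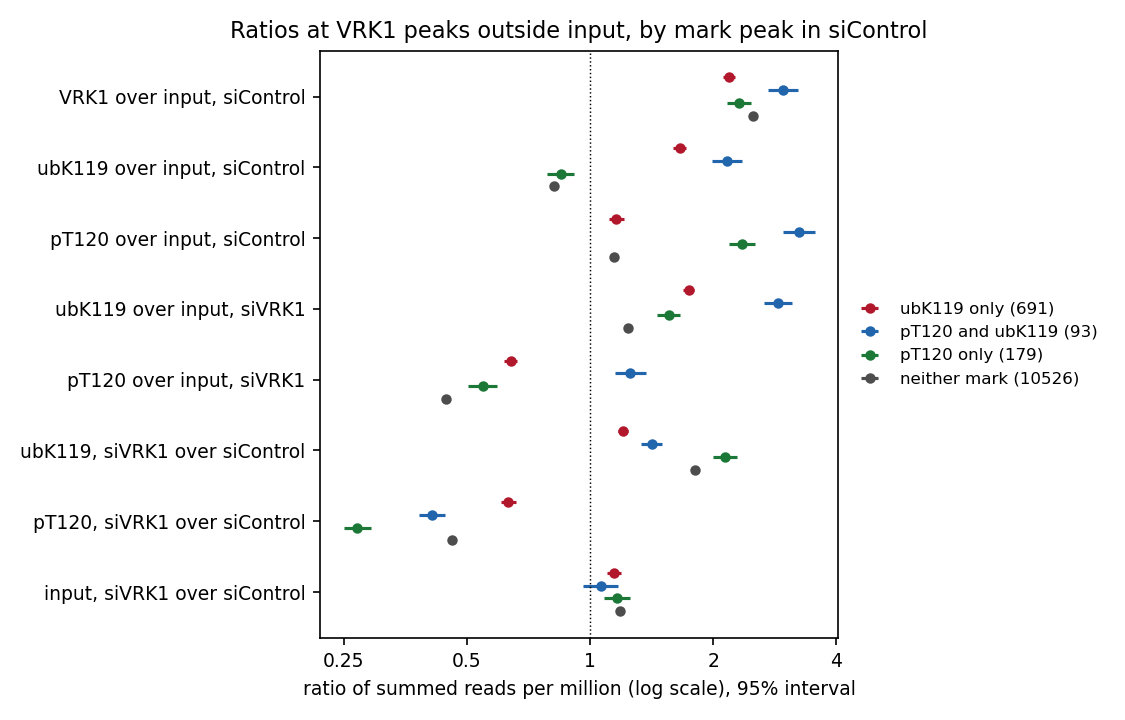
Ratio of summed RPM with its 95% interval (x axis, log scale) for each of 8 comparisons (y axis), in the 691 VRK1 peaks with ubK119 only and the 3 other sets outside input peaks. In siVRK1 cells the ubK119-only set (red) lies at 1.74 for ubK119 over input and 0.640 for pT120 over input, right of the neither-mark set (grey) in both.

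Between the siRNAs, the ubK119 signal of these regions differed less than that of VRK1 peaks with neither mark when scaled to library totals. The summed ubK119 level went from 286 RPM to 344 RPM, a siVRK1 to siControl ratio of 1.21 (1.17 to 1.24), and it was higher in siVRK1 in 381 regions (55.1%). With neither mark the ratio was 1.803 (1.78 to 1.82) and 79.8% of regions were higher. The regions share their siControl ubK119 library with the rule that chose them, which favours a low ratio here and a high one in the other set, so the gap between the 2 sets is a description. The direction also rests on the scaling: the ubK119 ratio at siControl input peaks was 1.36, and scaled to those regions the ratio of the 691 was 0.887. With at least 10 reads, 104 of 684 regions (15.2%) were at least 2-fold higher after siVRK1 against a background of 37.1%, and 87 (12.7%) were at most 0.5 against a background of 3.43%.

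The pT120 signal was lower after siVRK1. The summed pT120 level went from 200.2 RPM to 126 RPM, a siVRK1 to siControl ratio of 0.631 (0.605 to 0.658), and it was lower in 515 regions (74.5%). At VRK1 peaks with neither mark the ratio was 0.459 (0.453 to 0.465), at siControl input peaks it was 0.768, and scaled to those input regions the ratio of the 691 was 0.821. Both sets were chosen for having no siControl pT120 peak, which favours a higher ratio in each. The sets differ by the siControl ubK119 peak that the rule asks for, and the gap between them is given as a description. At least 2-fold higher pT120 was found in 36 of 411 regions (8.76%, background 2.82%) and at most 0.5 in 165 (40.1%, background 44.1%). Both directions together, ubK119 higher and pT120 lower, held in 325 of the 691 (47.0%) and in 66.7% of the regions with neither mark. The siVRK1 to siControl ratio of the input itself was 1.15 (1.10 to 1.19) at the 691, 1.001 over all VRK1 peaks and 0.795 at siControl input peaks. The last were called from the siControl input, which favours a low ratio there.

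The balance of the 2 marks within a siRNA, given as summed pT120 over summed ubK119 in RPM, ran far apart among the sets in siControl and close together in siVRK1. In siControl it was 0.701 at the 691 regions, 1.41 with neither mark, 1.499 with both and 2.78 with pT120 only. The choice of the sets places the ubK119-only value low and the pT120-only value high, and the intervals with neither mark (1.39 to 1.42) and with both (1.41 to 1.60) overlap. In siVRK1 it was 0.367 (0.354 to 0.380) at the 691, 0.359 (0.354 to 0.363) with neither mark, 0.351 (0.326 to 0.378) with pT120 only and 0.436 (0.407 to 0.467) with both. At VRK1 peaks over input peaks the siVRK1 value was 0.694. The sets that differed most in siControl thus had overlapping intervals in siVRK1, apart from the one with both marks.

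Peaks in siVRK1 were called from 0.600 RPM for ubK119 and 0.333 RPM for pT120, against 0.371 and 0.580 RPM in siControl. What part these floors had in the shares below was not tested. A ubK119 peak was called again in siVRK1 cells at 192 of the 691 regions, or 27.8% (24.5 to 31.3), against a background of 19.4% over all VRK1 peaks. That background is raised by VRK1 peaks over input peaks: outside them 6.47% met a siVRK1 ubK119 peak, and with neither mark 4.46%. A siVRK1 pT120 peak was found at 112 regions, or 16.2% (13.5 to 19.2), against a background of 18.9% over all VRK1 peaks, 2.92% outside input peaks and 1.48% with neither mark. Among the 179 regions with pT120 only, 18.4% met a siVRK1 ubK119 peak and 8.38% (4.77 to 13.4) a siVRK1 pT120 peak. Regions with only ubK119 in siControl thus met a siVRK1 pT120 peak at a higher share than those with only pT120 did, with intervals that just parted. The intervals treat regions as independent, while 473 of the 691 stood in the runs described below, so this gap is a description. The 93 regions with both marks in siControl had higher shares still, 52.7% for ubK119 and 57.0% (46.3 to 67.2) for pT120.

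Called at these unlike floors, the siVRK1 peaks divided the regions into 172 with ubK119 only, 92 with pT120 only, 20 with both and 407 (58.9%) with neither. These groups were made from the siVRK1 libraries, so their siVRK1 levels follow from the division, and their siControl values come from libraries that chose the 691 and are given as description. The 172 with a siVRK1 ubK119 peak only had siControl ratios over input of 2.35 (2.20 to 2.52) for VRK1, 1.87 (1.75 to 1.999) for ubK119 and 1.39 (1.28 to 1.51) for pT120. The 92 with a siVRK1 pT120 peak only had 1.87 (1.71 to 2.04), 1.57 (1.44 to 1.72) and 1.16 (1.04 to 1.29). The 407 without a siVRK1 peak had 2.21 (2.11 to 2.31), 1.57 (1.501 to 1.65) and 1.04 (0.982 to 1.10), with a VRK1 interval that overlapped that of the 172. The 407 regions without a siVRK1 peak still had siVRK1 ubK119 at 1.33 times input (1.28 to 1.39) and pT120 at 0.534 (0.506 to 0.564), on the same sides of input as the whole set.

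The siVRK1 pT120 level was much alike over the VRK1 heights up to the tallest regions, where it was above input. The ubK119 ratio over input was 1.62 in the 270 regions at height 14, 1.75 in the 263 at 15 to 16, 1.83 in the 142 at 17 to 20 and 2.43 (2.01 to 2.94) in the 16 at 21 or more. The pT120 ratio over input was 0.653, 0.595 and 0.614 in the first 3 classes and 1.42 (1.16 to 1.74) in the tallest. A siVRK1 pT120 peak lay at 15.6%, 12.9% and 17.6% of the first 3 classes and at 11 of the 16 tallest, or 68.8% (41.3 to 89.0). In these 16 regions the siVRK1 to siControl ratio of pT120 was 1.07 (0.863 to 1.33) and that of the input 0.928, against 0.631 and 1.15 for all 691. Only 16 regions, on 10 chromosomes, make up that class, and the 34 regions of the same height with neither mark had a siVRK1 pT120 ratio over input of 0.398.

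**Figure D3:**
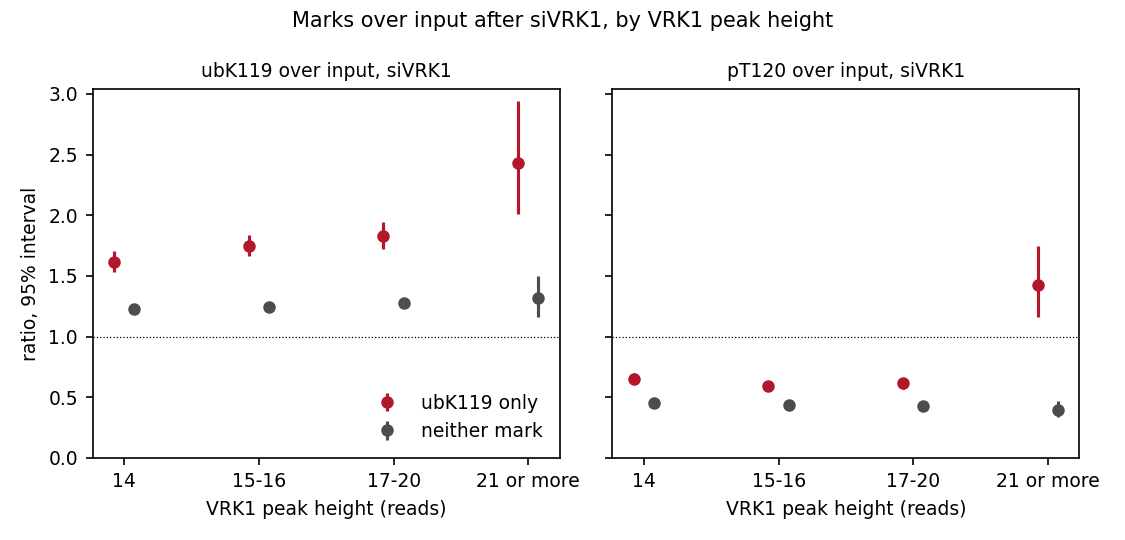
Ratio over input in siVRK1 cells with its 95% interval (y axis) by VRK1 peak height in reads (x axis), for ubK119 (left) and pT120 (right), in VRK1 peaks with ubK119 only (red) and with neither mark (grey). The pT120 ratio of the red set lies at 0.595 to 0.653 in the 3 lower classes and at 1.42 in the class of 16 regions with 21 reads or more.

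The tallest region lay at chr3:32783207-32783412, with a VRK1 height of 29. It gave 29 VRK1, 22 ubK119, 10 pT120 and 5 input reads in siControl, and 37 ubK119, 19 pT120 and 7 input reads in siVRK1. Both marks stood above input in siVRK1 there, at 5.86 (2.58 to 15.6) for ubK119 and 2.51 (1.01 to 7.05) for pT120. The region at chr9:79863245-79863448 gave 25 VRK1, 28 ubK119, 9 pT120 and 4 input reads in siControl and 19, 18 and 1 reads of ubK119, pT120 and input in siVRK1. At chr13:41501250-41501629 the siControl reads were 23, 27, 9 and 8 in the same order, and the siVRK1 reads 25, 20 and 0. These 3 regions had peaks of both marks in siVRK1 and very few siVRK1 input reads in the last 2, where the count of 0 allows up to 3 reads.

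The remaining tall regions were split. At chr11:81865612-81865812 there were 23 VRK1, 15 ubK119, 10 pT120 and 5 input reads in siControl and 8, 11 and 9 reads in siVRK1, and both marks there were level with input within their intervals. At chr13:20561799-20562189 there were 23, 18, 5 and 6 reads in siControl and 13, 19 and 9 in siVRK1. At chr2:1107441-1107702 there were 20, 25, 1 and 6 reads in siControl and 12, 4 and 12 in siVRK1. Of these 6 tallest, the chromosome 2 region alone kept neither mark as a siVRK1 peak, and its ubK119 ratio of siVRK1 to siControl was 0.648 with an interval of 0.296 to 1.34.

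The regions named next were picked for the most ubK119 reads or the highest ubK119 ratios, and several also had low pT120 reads after siVRK1. At chr3:128136112-128136723, 611 bp all under a ubK119 peak, siControl gave 39 VRK1, 55 ubK119, 15 pT120 and 17 input reads, and siVRK1 gave 142 ubK119, 8 pT120 and 27 input reads. This was the most ubK119 of any of the 691 in both siRNAs, with a siVRK1 to siControl ratio of 3.48 (2.53 to 4.85) for ubK119 and 0.306 (0.112 to 0.769) for pT120. Within 2 kb of it lay chr3:128137040-128137284 with 11 ubK119 reads in siControl and 54 in siVRK1, a ratio of 6.62 (3.42 to 14), and chr3:128137550-128137765 with 27 and 58, a ratio of 2.9 (1.81 to 4.76). The last 2 share 1 ubK119 peak, whose height of 41 was the highest met by any region, so the 3 are neighbours and not independent sites. That peak covered 79 of the 244 bp of chr3:128137040-128137284, so the siControl ubK119 count there was taken mostly beside it.

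Of the regions named by the rule for most ubK119 reads, extreme ratios or length, 7 lay at the start of chromosome 5, so their high ubK119 or low pT120 follows in part from how they were picked. At chr5:1204803-1205556 siControl gave 52 VRK1, 47 ubK119, 24 pT120 and 14 input reads, and siVRK1 gave 85, 6 and 35 reads of ubK119, pT120 and input. The ubK119 ratio of siVRK1 to siControl was 2.44 (1.69 to 3.56) and the pT120 ratio 0.144 (0.048 to 0.36), the lowest pT120 ratio among the 100 regions with at least 20 pT120 reads in the pair of libraries. At chr5:957145-957702 the ubK119 reads were 19 and 56 and the pT120 reads 17 and 6, at chr5:1551584-1551963 they were 26 and 57 and 8 and 6, and at chr5:1553787-1553987 14 and 44 and 4 and 4. The overlap with the ubK119 peak was 18 bp at the region starting at 957145, so its siControl ubK119 count was taken mostly beside the peak. The same holds for the region starting at 1553787, where the overlap was 57 of 200 bp. At chr5:1253142-1253785 ubK119 was level, with 46 and 37 reads and a ratio of 1.09 (0.684 to 1.71), while pT120 went from 20 to 11 reads. At chr5:1258234-1258780 it was level too, with 43 and 40 reads (1.26, 0.795 to 1.98), beside pT120 reads of 15 and 5. At chr5:1190401-1190957 a siVRK1 peak of each mark was called, with 45 and 63 ubK119 reads and 18 and 20 pT120 reads. Higher ubK119 was thus not shared by every rich region on this arm, although pT120 relative to depth was lower in each of these 7 except that the intervals reached past 1 at 3 of them.

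The other long regions behaved otherwise. The longest, chr1:17031017-17031939, spans 922 bp and gave 58 VRK1, 51 ubK119, 21 pT120 and 15 input reads in siControl and 55, 18 and 31 in siVRK1, for a ubK119 ratio of 1.45 (0.976 to 2.17). At chr18:6526985-6527839, 854 bp long, there were 65 VRK1, 53 ubK119, 16 pT120 and 32 input reads in siControl and 41, 30 and 41 in siVRK1. Its ubK119 ratio of 1.04 (0.677 to 1.6) and pT120 ratio of 1.08 (0.568 to 2.11) both span 1, and its input was the highest of the 691 in both siRNAs. At chr18:6256740-6257477 there were 48 and 48 ubK119 reads and 19 and 27 pT120 reads, with 17 and 22 input reads. At chr3:133667329-133667600 the ubK119 reads were 14 and 50, a ratio of 4.82 (2.62 to 9.44), beside pT120 reads of 7 and 3 (0.246, 0.0411 to 1.08). Only 24 of the 271 bp of this region lay under its ubK119 peak, so its siControl ubK119 count was taken mostly beside the peak. Its ubK119 ratio lay above both of the chromosome 18 ratios with intervals apart, while the pT120 intervals overlapped.

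The regions with the lowest ubK119 ratios had pT120 ratios of 0.53 to 1.82 after siVRK1, each with an interval that spans 1. At chr7:32542685-32543069 the ubK119 reads were 31 in siControl and 7 in siVRK1 (0.305, 0.113 to 0.705), and the pT120 reads 6 and 19. At chr15:99700996-99701331 the ubK119 reads were 34 and 12 (0.476, 0.225 to 0.943) and the pT120 reads 11 and 25, with 2 and 3 input reads. At chr3:75691971-75692235 they were 24 and 6 (0.337, 0.113 to 0.847) beside 10 and 19, and at chr7:143953218-143953536 29 and 9 (0.419, 0.174 to 0.909) beside 13 and 12. The first 3 of these had a siVRK1 pT120 peak and no siVRK1 ubK119 peak. They are the 4 lowest ubK119 ratios among 308 regions with at least 30 ubK119 reads in the pair of libraries, so their low ratios follow from the selection.

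By the rule none of the 691 regions met a siControl pT120 peak, which favours high pT120 ratios. The regions named next had the 4 highest pT120 ratios among 100 with at least 20 pT120 reads in the pair of libraries. Their high ratios follow from that selection. At chr18:9440673-9441038 the pT120 reads were 4 in siControl and 39 in siVRK1, a ratio of 5.6 (2.02 to 21.6), while the ubK119 reads were 31 and 12 and the input reads 9 and 12. At chr20:19469934-19470134 the pT120 reads were 3 and 18 (3.44, 1.01 to 18.3) and the ubK119 reads 15 and 2. At chr14:50547221-50547523 they were 4 and 18 (2.58, 0.851 to 10.5) beside ubK119 reads of 19 and 17, and at chr1:16966294-16966494 4 and 17 (2.44, 0.796 to 9.97) beside 16 and 4. The last 2 intervals span 1. Each of these 4 regions had a siVRK1 pT120 peak and none had a siVRK1 ubK119 peak. At the other end, chr10:47050167-47050738 gave 18 and 6 pT120 reads (0.191, 0.0622 to 0.503), 14 and 22 ubK119 reads and 19 and 27 input reads.

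The regions were unevenly spread over the genome. Chromosome 5 held 164, chromosome 3 held 112, chromosome 18 held 100 and chromosome 20 held 58, against 0 of 38 VRK1 peaks outside input peaks on chromosome 22 and 0 of 5 on X. As a share of the VRK1 peaks outside input peaks, they made up 22.99% on chromosome 18, 17.6% on chromosome 4, where there were 13, 13.6% on chromosome 5 and 4.97% on chromosome 3, where VRK1 peaks were many. On chromosome Y they were 5 of 22 (22.7%). The share was 1.93% on chromosome 2, with 14 regions.

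**Figure D4:**
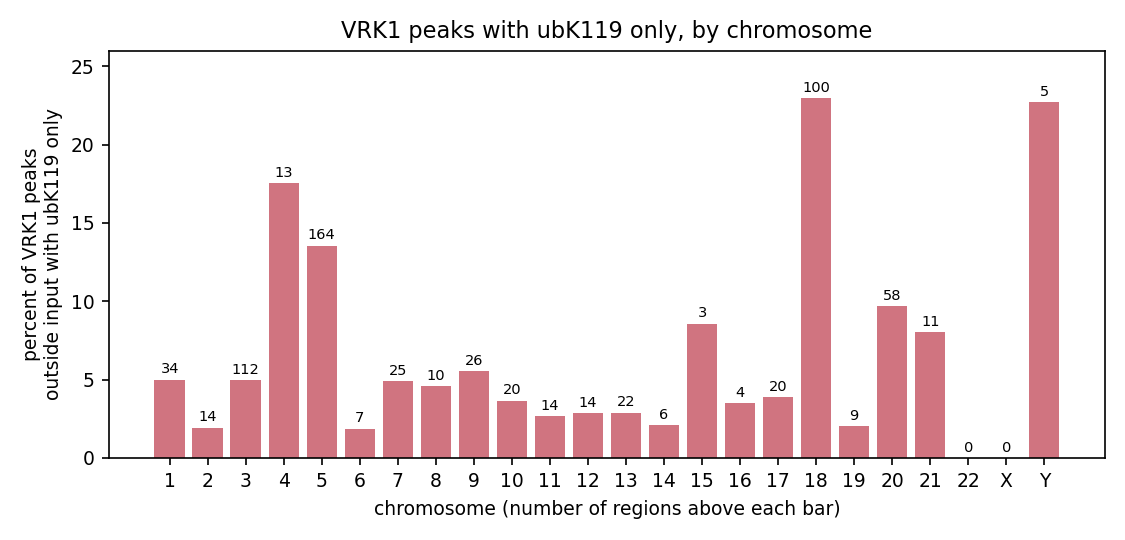
Percent of the VRK1 peaks outside input peaks that carried ubK119 only (y axis) on each chromosome (x axis), with the number of such regions above each bar. Chromosomes 18 and Y stand highest at 22.99% and 22.7%, the latter from 5 regions.

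Most of the regions stood in runs. Joining regions at most 1 Mb apart and keeping runs of at least 5, a rule set after the positions were seen, gave 21 runs with 473 of the 691 (68.5%). These runs spanned 47.0 Mb and held 20.7% of the VRK1 peaks outside input peaks. The run with the most, chr5:80648-7930948 near the end of the short arm, held 142 regions among 483 such VRK1 peaks (29.4%). By number of regions the next, chr18:5975386-11552070, held 90 of 302 (29.8%), chr20:19269487-25478446 held 49 of 317 and chr3:126038934-130284236 held 33 of 277.

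The runs differed in the marks that siVRK1 cells had there. In the chromosome 5 run siVRK1 ubK119 stood at 2.14 times input (2.0 to 2.28) and pT120 at 0.456 (0.415 to 0.4997). In the chromosome 18 run the values were 1.18 (1.08 to 1.29) and 0.952 (0.873 to 1.04), so neither mark was far from input. The chromosome 20 run lay between, at 1.58 and 0.563, and the runs on chromosome 3 at 126038934 and at 133431448 had ubK119 of 2.59 and 2.79 beside pT120 of 0.380 and 0.441. The siControl input density of VRK1 peaks with neither mark was 1.08 RPM per kb in the chromosome 18 run and 0.845 in the chromosome 5 run, against 0.781 outside all runs. What part a higher input had in the marks read there was not tested.

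Summed over all runs, and summed over all regions outside them, the difference from VRK1 peaks with neither mark was present. It did not hold for ubK119 on each chromosome, as given below. Inside, siVRK1 ubK119 over input was 1.78 (1.72 to 1.85) at the 473 regions and 1.35 (1.32 to 1.38) at 1794 regions with neither mark, and pT120 over input was 0.607 (0.580 to 0.636) and 0.472 (0.460 to 0.484). Outside, the 218 regions had 1.64 (1.54 to 1.74) and 0.725 (0.675 to 0.777), and the 8732 with neither mark had 1.21 and 0.437. A siVRK1 ubK119 peak lay at 31.5% of the regions inside runs and 19.7% outside, against 9.81% and 3.36% with neither mark. A siVRK1 pT120 peak lay at 15.4% and 17.9%, against 4.24% and 0.916%. The ubK119 ratio of siVRK1 to siControl was 1.27 inside the runs and 1.06 (1.01 to 1.12) outside.

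By chromosome the picture was similar. On the 16 chromosomes with at least 10 regions, siVRK1 ubK119 over input was above 1 on each, from 1.21 on chromosome 18 to 2.93 on chromosome 8, and it was above the value with neither mark on 15, with intervals apart on 10. The pT120 ratio over input ran from 0.409 on chromosome 12 to 1.11 on chromosome 21, and it was above the value with neither mark on 15, with intervals apart on 9. Chromosome 5 had 2.07 (1.94 to 2.20) for ubK119 and 0.478 (0.439 to 0.521) for pT120, and chromosome 18 had 1.21 (1.12 to 1.32) and 0.927 (0.852 to 1.01). With neither mark, chromosome 5 had 1.32 (1.29 to 1.36) and 0.456 (0.439 to 0.474). Chromosome 18 with neither mark had 1.20 (1.14 to 1.26) and 0.633 (0.597 to 0.670). The ubK119 intervals were thus apart on chromosome 5 and overlapped on chromosome 18, and the pT120 intervals the reverse. The small runs chr4:190476000-190816321 and chr21:9828029-11133328, with 8 and 9 regions, also had pT120 near input, at 1.04 and 1.13, beside ubK119 at 1.26 and 1.24.

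**Figure D5:**
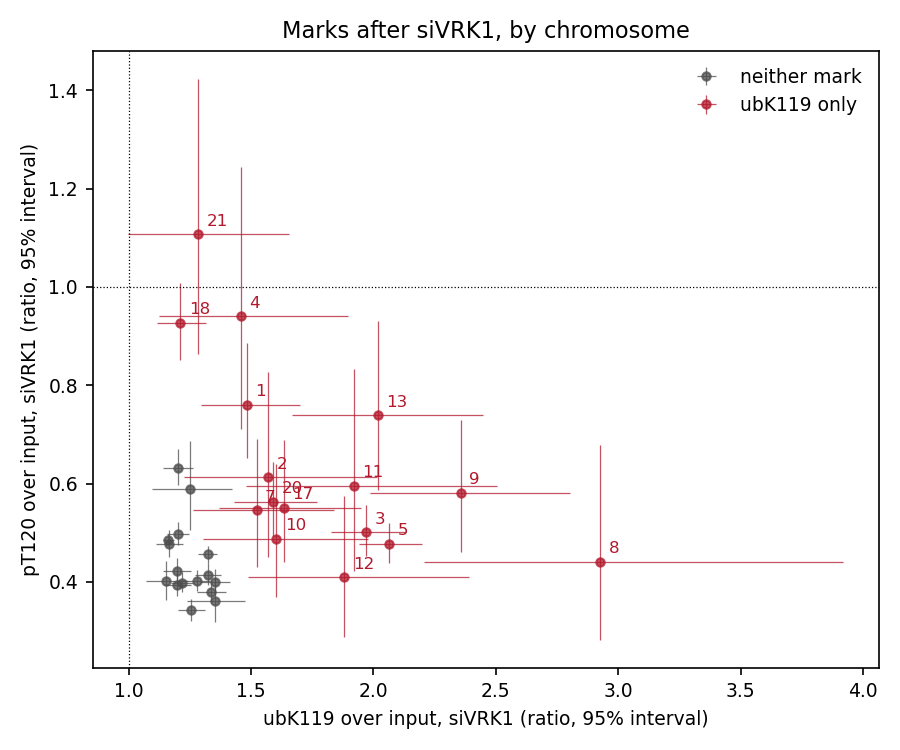
Ratio over input in siVRK1 cells of pT120 (y axis) against ubK119 (x axis) on the 16 chromosomes with at least 10 regions, each with its 95% intervals, for VRK1 peaks with ubK119 only (red, numbered) and with neither mark (grey). Grey points lie between 1.15 and 1.35 for ubK119, while red points spread from 1.21 on chromosome 18 to 2.93 on chromosome 8.

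Values just inside and just outside the rule lay close together. The 24 regions with under 20 bp of overlap had siControl ubK119 at 0.958 times input (0.780 to 1.18), with a median of 9.5 reads, and siVRK1 ubK119 at 1.93. Just outside, 128 VRK1 peaks with neither mark had a ubK119 peak within 100 bp, and they had siControl ubK119 at 1.07 times input (0.976 to 1.17), with a median of 9 reads, and siVRK1 ubK119 at 1.70 (1.57 to 1.84). The 10398 with neither mark and no ubK119 peak that near had 0.812 in siControl and 1.23 in siVRK1. The siVRK1 ubK119 level beside a siControl ubK119 peak was thus close to that under one.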

How the data were processed

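Each of the 7 libraries has its own deposited peak list, and titles gave the groups. Partek, Bowtie 0.12.8, CASAVA 1.8.2 and hg19 appear in the submitters' processing notes without a role for each. Not given in the sources used here are the peak settings, the handling of duplicates, any use of input in calling, and the base (0 or 1) of the positions. Per the labels, libraries had 20 cycles of PCR and 36 cycles of sequencing, so repeats and duplicates can raise counts.

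Per the file headers, every region has a raw read count for each of the 7 libraries. The authors' peak height is a signal, the most extended reads in a window, and was also deposited as RPM of the library. Height divided by RPM gave the library totals. The percent of each region covered by other libraries' peaks was deposited too, and overlap calls made here differed from it in 0 cases. The Mann-Whitney p-value deposited by the authors' caller was not used to choose or test regions.

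Counts in the VRK1 regions were divided by library totals, and summed ratios were given exact conditional binomial intervals of 95%, shares exact Clopper-Pearson ones (Python 3.11.15, SciPy 1.17.1). With 1 library per group there was no test. The scripts were tested on simulated data. The alternatives were another overlap minimum, height, scaling, set of regions, input minimum and chromosome set.

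Named regions are the 6 with the highest VRK1 height and the most ubK119 reads in either siRNA, the 4 highest and lowest siVRK1 to siControl ratios of each mark with at least 30 (ubK119) or 20 (pT120) reads, and the 3 longest. The regions and lists were chosen with earlier results of these data known. Gene annotation of hg19 was not used here, so genes and sequences are not reported.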

Additional observations from a re-analysis of the deposited data

How the results depend on the processing

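Of 84 recomputed values, 25 stayed within their counting interval or within 1.5 times the main count, 54 moved past it and 5 changed direction. Requiring 50% of the VRK1 peak to be covered left 457 regions and gave ubK119 over input of 1.90 in siControl, pT120 over input of 0.694 in siVRK1, siVRK1 to siControl ratios of 1.10 for ubK119 and 0.671 for pT120, and a siVRK1 pT120 peak at 20.1%. A height of at least 1.5 times the lowest left 16 regions. There VRK1, ubK119 and pT120 over input were 2.71, 1.93 and 1.24 in siControl, ubK119 over input was 2.43 in siVRK1 and siVRK1 peaks lay at 43.8% (ubK119) and 68.8% (pT120). With that height pT120 over input in siVRK1 changed direction to 1.42 (1.16 to 1.74). The siVRK1 to siControl ratios of pT120 (1.07, 0.863 to 1.33) and input (0.928, 0.737 to 1.17) changed direction too, although these intervals span 1. The ubK119 ratio of siVRK1 to siControl was 1.17. The cause was not tested.

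Scaling to reads in siControl input regions gave VRK1, ubK119 and pT120 over input of 2.86, 2.90 and 1.59 in siControl, pT120 over input of 0.909 in siVRK1, and siVRK1 to siControl ratios of 0.887 for ubK119, a change of direction, 0.821 for pT120 and 1.44 for input. Input regions with at most 100 reads, an alternative chosen after seeing the data, gave 3.56, 3.51, 1.99, 0.995, 0.906 (again a change of direction), 0.899 and 1.80045 in the same order. Both scalings use peaks called in the siControl input, which favours higher scaled ratios over that input. Reads in the ubK119 regions gave VRK1 and ubK119 over input of 1.66 and 1.95, siVRK1 pT120 over input of 0.708, and siVRK1 to siControl ratios of 1.04 for ubK119 and 0.705 for pT120.

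At least 5 reads in each input left 436 regions, with VRK1, ubK119 and pT120 over input of 1.86, 1.40 and 1.02 in siControl and 1.61 (ubK119) and 0.614 (pT120) in siVRK1, an input ratio of 1.06 and a siVRK1 pT120 peak at 19.5%. Without chromosomes 3, 5 and 18, 315 regions gave siVRK1 ubK119 over input of 1.69, pT120 over input of 0.668 and a ubK119 ratio of 1.15. Called regions were also recounted by 2 alternatives chosen after seeing the data. At a fold of 1.5, with the share over all VRK1 peaks in brackets, siVRK1 ubK119 over input was higher in 354 (28.7%) and lower in 62 (16.9%) of 653, siVRK1 pT120 over input higher in 58 (4.28%) of 564, and ubK119 between siRNAs higher in 208 (56.2%) and lower in 151 (7.35%) of 684. A minimum of 20 reads tests fewer regions. Then ubK119 over input was lower in 3 (4.0%) of 401, pT120 over input higher in 13 (1.79%) and lower in 46 (44.5%) of 179, ubK119 between siRNAs lower in 49 (2.3%) of 572, and pT120 between siRNAs higher in 9 (2.06%) and lower in 19 (29.8%) of 100. Medians of 5 to 16 reads per region limit what a single region shows. No paired analysis was possible because each group has 1 library and the labels carry no replicate numbers.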
